A study of Sus scrofa with 9 samples.

Results

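Cells make cholesterol by the mevalonate pathway and build fatty acids from acetyl-CoA. SREBF1 and SREBF2 encode the sterol regulatory element-binding proteins, membrane-bound factors that are cut free when sterols are low and then switch on the enzymes of both routes. SQLE, squalene epoxidase, makes an early committed step towards sterols. ACACA, acetyl-CoA carboxylase, makes the malonyl-CoA that FASN, fatty acid synthase, strings into saturated fat, and SCD, stearoyl-CoA desaturase, puts the first double bond into it. Liver and fat hold most of this synthesis in the body, while blood cells make lipid mainly for their own membranes.

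These genes were followed in whole blood of male specific-pathogen-free Clawn miniature pigs, a small laboratory breed, given 1 oral dose of azide at 300 µg/kg. Azide poisons cytochrome c oxidase, where mitochondrial respiration uses oxygen; which salt was fed is not stated. Blood was taken into RNA-preserving tubes before feeding (0 h), at 6 h and at 24 h, on 3 arrays per time, 9 altogether. For age the labels disagree, with 7 months in some fields and 7 weeks in others. Whether equal replicate numbers mean the same animal is not stated, so p-values measure only the spread between these samples, which may be technical. All pigs at 6 h and 24 h were dosed, so feeding, handling and time of day cannot be told apart from azide. Each time also lay on its own slide, so slide and time cannot be told apart.

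Members were the non-control probes whose gene name was SREBF1, ACACA, FASN or SCD, or whose description held 1 of a set of phrases for sterol synthesis and uptake, among them sterol regulatory proteins, squalene and acetyl-CoA carboxylase. This found 7 of the 41325 gene and contig names on the array, with 16 of its 43603 probes. There were 4 for ACACA, 3 each for FASN and SCD, and 2 each for SREBF1, which the array lists as SREBP-1C, and SQLE. SREBF2, listed as SREBP-2, had 1 probe. The last was an unnamed contig whose description records a partial match of 5% to a bacterial HMG-CoA synthase.

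Testing was limited to probes well above background on every array of 1 or more times, which held for 9 of the 16 member probes and for 19783 probes in total. All 4 ACACA probes are shown because only the first was measured above background, together with 1 probe each of SREBF1, FASN and SQLE. They are 60 bases long, in lower case with nothing marked, in the order in which the array files list them.
ACACA P253137: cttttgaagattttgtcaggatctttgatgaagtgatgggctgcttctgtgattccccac
ACACA P023091: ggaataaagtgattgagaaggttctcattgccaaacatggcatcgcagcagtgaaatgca
ACACA P305844: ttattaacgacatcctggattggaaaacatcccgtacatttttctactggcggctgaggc
ACACA P387983: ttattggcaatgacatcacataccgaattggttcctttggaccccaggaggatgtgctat
SREBF1 P326973: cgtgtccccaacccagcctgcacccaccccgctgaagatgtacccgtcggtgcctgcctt
FASN P338038: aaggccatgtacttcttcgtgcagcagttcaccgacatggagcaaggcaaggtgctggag
SQLE P374783: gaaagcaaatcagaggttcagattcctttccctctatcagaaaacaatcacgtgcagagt
No pair of member probes shared a stretch of 20 bases, so probes of 1 gene were separate measurements of it on each array.

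Labelled tissue was checked against blood markers. The globin gene HBE1, the white cell genes CD74 and LYZ, 6 of 6 neutrophil, 9 of 9 T cell and 3 of 3 platelet genes with a named probe were among the tested probes. Of 9 fat cell and liver genes with a named probe, only LEP was tested; ADIPOQ, ALB, APOA1, APOB, CIDEC, FABP4, PLIN1 and TTR were each well above background on at most 1 of 9 arrays per probe. Before scaling, the 75th percentile of log2 signal ran from 5.79 to 7.69, and 39.9% to 56.6% of the 43803 spots per array were well above background. With 3 arrays per time, their number limits the precision of every value. In bulk blood, fewer cells of a type and less RNA per cell cannot be told apart.

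Levels below are log2 signal minus the array's 75th percentile, and a difference is that between the means of 2 times on this scale, ± the standard error from limma (n = 3 per time). No member probe passed in any comparison at a threshold of 0.05 on the p-value adjusted by Benjamini-Hochberg over 19783 probes. At 6 h against before feeding 0 of 9 passed, where 0.0253% of all tested probes did; 1 of 9, ACACA, had an unadjusted limma p under 0.05, where 25.5% of all did. ACACA entered the tested probes only through 6 h and 24 h, where it was higher, so its count at either time is no independent support for a difference. At 24 h against before feeding 0 of 9 passed, where 0% of all did, and ACACA alone had an unadjusted p under 0.05, where 13.9% of all did. At 24 h against 6 h 0 of 9 passed, where 0% of all did, and 0 of 9 had an unadjusted p under 0.05, where 21.6% of all did. Over the 3 times together, ACACA alone had an unadjusted p under 0.05 in limma's F test, where 26% of all probes did.

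Direction was mixed at 6 h, with 3 of 9 differences above 0 where 52.6% of all probes were, and a median of -0.38 beside 0.05 over all probes. At 24 h 8 of 9 were above the level before feeding, where 49.1% of all probes were, with a median of 0.20 beside -0.01. From 6 h to 24 h 7 of 9 differences were above 0, where 43.7% of all were, with a median of 0.72 beside -0.09. Groups did not overlap for 1 of 9 members at 6 h, where 26.6% of all probes did not, for 0 of 9 at 24 h and for 1 of 9 from 6 h to 24 h, where 26.5% of all did not in both. The 3 comparisons share arrays, and probes of 1 gene share its RNA, so these counts are not independent of each other.

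**Figure D1:**
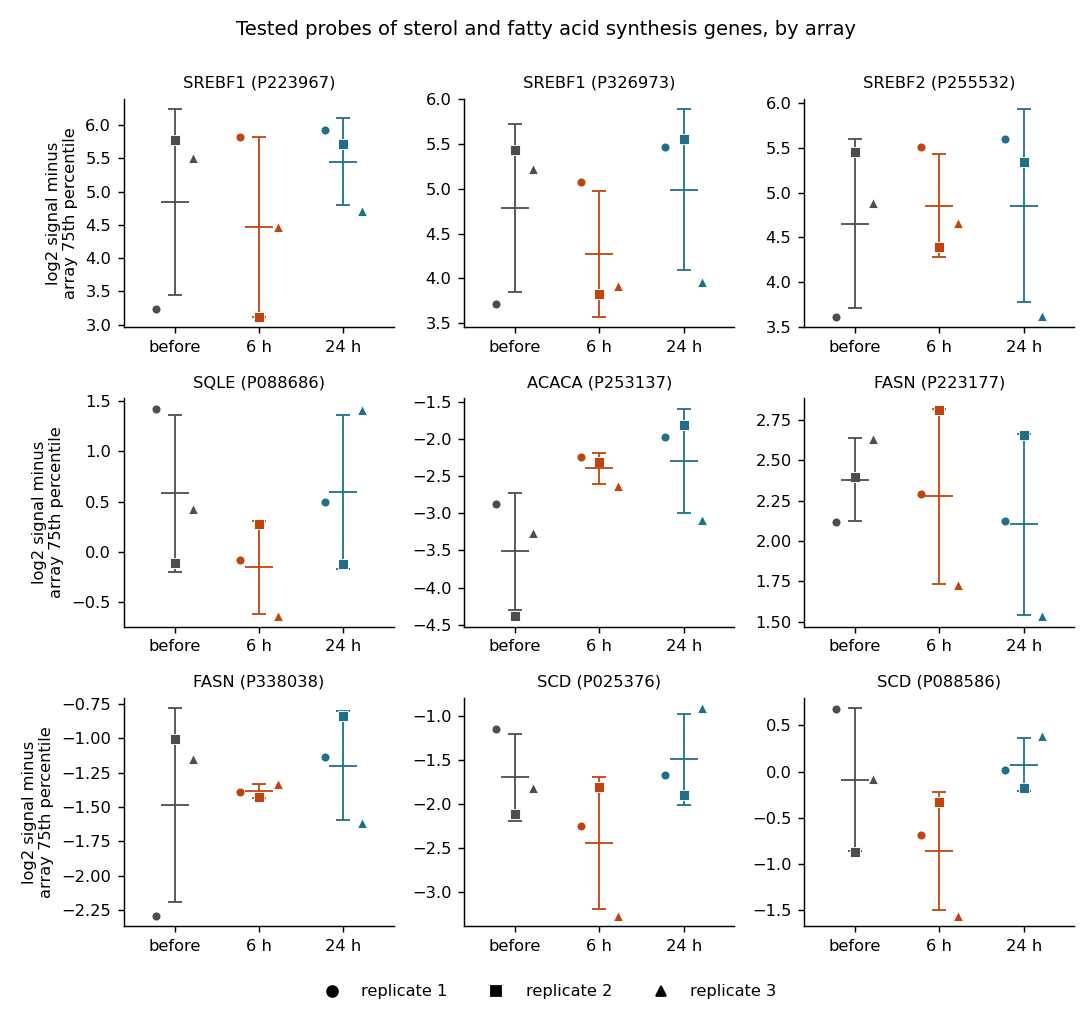
Each panel shows 1 tested probe; the vertical axis is log2 signal minus the array's 75th percentile, with its own range, and the horizontal axis is the time. Symbols are the 3 arrays, long dashes the means and bars 1 SD. ACACA (P253137) lies between -4.39 and -2.87 before feeding and between -2.63 and -2.24 at 6 h; the other 8 probes overlap between those times.

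The factors that switch the pathway on come first. SREBF1 is the form mostly tied to fatty acid genes. Its probe P223967 stood at 3.24, 5.78 and 5.51 before feeding, at 5.82, 3.12 and 4.46 at 6 h, and at 5.93, 5.71 and 4.70 at 24 h. Replicate 1 before feeding and replicate 2 at 6 h were the lowest arrays, and all 3 times overlapped. The difference was -0.38 ± 0.76 at 6 h (95% interval -2.06 to 1.31) and 0.60 ± 0.76 at 24 h. From 6 h to 24 h it was 0.98 ± 0.76, with an interval of -0.70 to 2.67 and a limma adjusted p of 0.487.

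The second SREBF1 probe, P326973, gave 3.72, 5.43 and 5.22 before feeding, 5.08, 3.82 and 3.91 at 6 h, and 5.46, 5.55 and 3.96 at 24 h. It was low on the same 2 arrays, and also on replicate 3 at 6 h and at 24 h. Its differences were -0.52 ± 0.57 at 6 h, 0.20 ± 0.57 at 24 h and 0.72 ± 0.57 from 6 h to 24 h. The spread within each time was wide enough that changes of over 1 log2 unit in either direction lie within the intervals at 24 h.

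SREBF2, the form tied to cholesterol genes, was at 3.61, 5.46 and 4.89 before feeding, at 5.51, 4.40 and 4.66 at 6 h, and at 5.60, 5.34 and 3.61 at 24 h. Its lowest arrays were replicate 1 before feeding and replicate 3 at 24 h, and all times overlapped. Differences were 0.20 ± 0.60 at 6 h, 0.20 ± 0.60 at 24 h and -0.00 ± 0.60 from 6 h to 24 h. The sign at 6 h and from 6 h to 24 h turned under other scalings.

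SREBF1 probe P223967 has an unusual sequence. Its GC content is 81.7%, the only one of 43603 probes over 80%, where the median is 40%. It holds both a NotI site, GCGGCCGC, and a SalI site, GTCGAC; each reads the same on both strands, and their letters cannot overlap. NotI sites are in 14 of 43603 probes, SalI sites in 66, and both in 1, this one. Such sites are common in cloning vectors; whether this probe holds vector sequence was not tested, so its values may not be those of SREBF1 RNA. Probe P326973, with 66.7% GC and neither site, followed it over the 9 arrays with a Pearson r of 0.91. Probes of TNFSF12 and GRK7, the highest of 1145 named genes, had an r of 0.94 and 0.93 with it. An r of this size is thus not particular to SREBF1 and does not settle what P223967 measures.

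SQLE stands for the sterol branch among the members. Probe P088686 gave 1.43, -0.11 and 0.43 before feeding, -0.09, 0.27 and -0.65 at 6 h, and 0.49, -0.12 and 1.41 at 24 h. The highest arrays were replicate 1 before feeding and replicate 3 at 24 h, the lowest replicate 3 at 6 h, and all times overlapped. Its difference was -0.74 ± 0.48 at 6 h (interval -1.80 to 0.33, limma adjusted p = 0.353), 0.01 ± 0.48 at 24 h and 0.75 ± 0.48 from 6 h to 24 h (adjusted p = 0.395). It was -0.31 at 6 h without replicate 1 before feeding, and 0.34 from 6 h to 24 h without replicate 3 at 24 h. The printed SQLE probe P374783 was well above background on 5 of 9 arrays, on all 3 arrays of no time, and was not tested. The unnamed contig was well above background on 3 of 9 arrays and was not tested either.

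ACACA, which commits acetyl-CoA to fat, had the smallest unadjusted p among the members against before feeding. Probe P253137 was at -2.87, -4.39 and -3.27 before feeding, at -2.24, -2.31 and -2.63 at 6 h, and at -1.97, -1.81 and -3.10 at 24 h. All 3 arrays at 6 h lay above all 3 before feeding, while replicate 3 at 24 h fell within the earlier range. The signal was faint: before feeding it was well above background on 1 of 3 arrays, and at 6 h and 24 h on all 3. The difference in mean was 1.12 ± 0.44 at 6 h, 1.22 ± 0.44 at 24 h and 0.10 ± 0.44 from 6 h to 24 h. The first and second are set against a time near background, and the probe was tested only because of the times at which it was higher. Without replicate 2 before feeding they were 0.68 and 0.78. With another background correction, normexp, which models background and signal together, the 3 differences came to 0.04, -0.16 and -0.20. Its offset narrows differences between faint spots, so these values cannot tell whether ACACA changed. The other ACACA probes, P023091, P305844 and P387983, were well above background on 0 of 9 arrays, so 1 of 4 probes gave any measured level.

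For FASN, every difference of both tested probes was smaller than its standard error. Probe P223177 gave 2.12, 2.39 and 2.63 before feeding, 2.29, 2.81 and 1.73 at 6 h, and 2.12, 2.66 and 1.53 at 24 h. Replicate 3 was the lowest array at 6 h and at 24 h, and all times overlapped. Differences were -0.10 ± 0.37 at 6 h (interval -0.92 to 0.72), -0.28 ± 0.37 at 24 h and -0.17 ± 0.37 from 6 h to 24 h.

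FASN probe P338038 gave -2.29, -1.01 and -1.15 before feeding, -1.39, -1.43 and -1.33 at 6 h, and -1.14, -0.84 and -1.62 at 24 h. Only replicate 1 before feeding stood clearly apart, on the low side. Differences were 0.10 ± 0.37 at 6 h, 0.29 ± 0.37 at 24 h and 0.19 ± 0.37 from 6 h to 24 h, so the 2 FASN probes differed in sign in every comparison. The third FASN probe, P175196, was well above background on 3 of 9 arrays and was not tested.

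SCD had its lowest mean at 6 h in both of its tested probes, though no difference passed the threshold. Probe P088586 was at 0.68, -0.87 and -0.08 before feeding, at -0.68, -0.33 and -1.57 at 6 h, and at 0.02, -0.18 and 0.38 at 24 h. All 3 arrays at 24 h lay above all 3 at 6 h, while those before feeding spanned both. Its difference was -0.77 ± 0.44 at 6 h, 0.16 ± 0.44 at 24 h and 0.94 ± 0.44 from 6 h to 24 h (interval -0.03 to 1.90, limma adjusted p = 0.242).

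SCD probe P025376 was at -1.15, -2.12 and -1.81 before feeding, at -2.25, -1.81 and -3.27 at 6 h, and at -1.67, -1.90 and -0.91 at 24 h. Here too replicate 3 at 6 h was the lowest array, the only one on which this probe was not well above background, and the groups overlapped. The probe thus entered the tested set only through before feeding and 24 h, where its mean was higher. Its low mean at 6 h is therefore no independent support for that of P088586. The difference was -0.75 ± 0.43 at 6 h, 0.20 ± 0.43 at 24 h and 0.95 ± 0.43 from 6 h to 24 h (interval -0.01 to 1.91, limma adjusted p = 0.235). Without replicate 3 at 6 h, the value from 6 h to 24 h was 0.53 for this probe and 0.58 for P088586. With normexp P025376 had -0.19 at 6 h and 0.13 from 6 h to 24 h, and P088586 had -0.35 and 0.46. The normexp offset narrows differences between faint spots, so its values for P025376 cannot tell whether that probe changed. The third SCD probe, P359613, was well above background on 0 of 9 arrays.

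**Figure D2:**
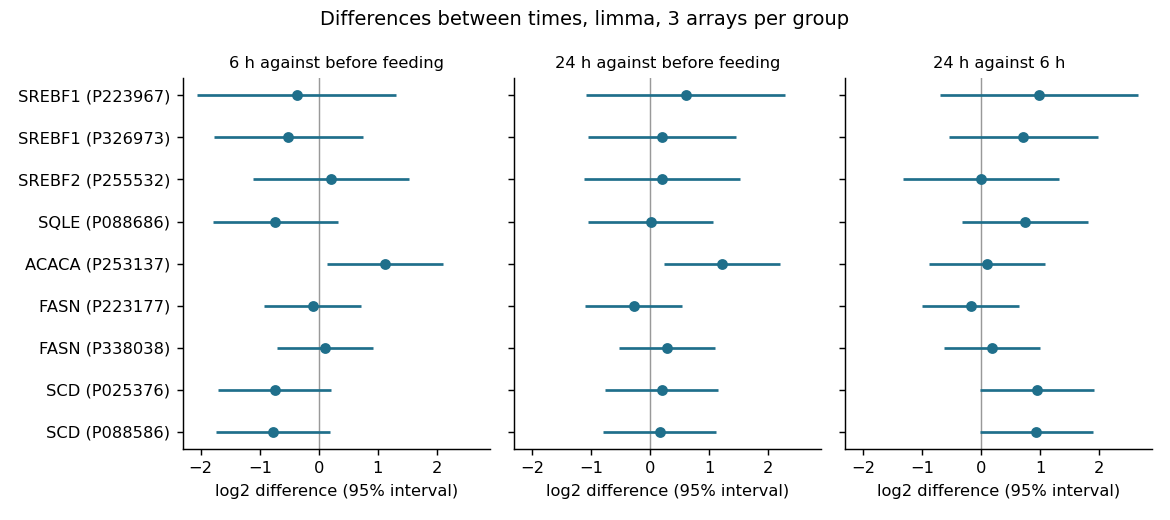
Points are log2 differences of group means for the 9 tested member probes (rows) in the 3 comparisons (panels), and lines are 95% intervals from limma. The intervals of 8 probes include 0 in all panels. That of ACACA does not at 6 h and 24 h, but its level before feeding was well above background on only 1 of 3 arrays. With normexp its differences were 0.04 and -0.16. The normexp offset narrows differences between faint spots, so these values cannot tell whether ACACA changed.

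Members varied together in 2 sets across the 9 arrays. The correlations are given as a description, over arrays that share slides and scaling. In the first set, the 2 SCD probes had a Pearson r of 0.95 with each other, and SQLE had 0.93 with P025376 and 0.92 with P088586; after the group means were taken away these were 0.92, 0.91 and 0.89. In the second set, SREBF2 had an r of 0.87 with SREBF1 P326973 and 0.81 with FASN P338038. Between the sets r was below 0 for every pair, from -0.71 for SREBF2 and SQLE to -0.12 for SREBF1 P326973 and SCD P025376. ACACA stood apart before the group means were taken away, with r between -0.11 and 0.15 to all others. After that its r ran from -0.19 with FASN P338038 to 0.46 with SCD P088586. The 2 FASN probes had an r of 0.39.

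The sets also differ in a property of the probes. GC content was 35% for SQLE and 35% and 36.7% for SCD, against 51.7% for SREBF2, 55% for FASN P338038 and 66.7% and 81.7% for SREBF1. Only 1.16% of all probes have a GC content over 50%. On each array the median deviation of the other tested probes moved with GC content. For 5376 probes of at most 35% GC it was 0.23, -0.16 and 0.09 before feeding, -0.21, 0.07 and -0.13 at 6 h, and -0.04, -0.03 and 0.21 at 24 h. For 352 probes over 50% GC it was -0.59, 0.19 and -0.15, then 0.26, 0.21 and 0.27, then -0.02, 0.13 and -0.41. Replicate 1 before feeding and replicate 3 at 24 h were thus high for AT-rich and low for GC-rich probes, as they were for SQLE and for SREBF2. The r with the AT-rich profile was 0.88 for SQLE, 0.83 and 0.79 for SCD, -0.84 for SREBF2 and -0.63 for FASN P338038. For the SREBF1 probes, the richest in GC, it was -0.60 and -0.54, and their r with the GC-rich profile was 0.35 and 0.37.

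When each array was centred within GC classes, an alternative chosen after seeing the data, the differences from 6 h to 24 h were 0.80 and 1.01 for the SCD probes and 0.61 for SQLE. SREBF1 P326973 then had -0.91 at 6 h and 1.05 from 6 h to 24 h, both larger in size than before centring. At 6 h the shift was the same as for SREBF2 and FASN P338038, so they shared a class. Tested probes of 50 to 60% GC (352) had medians of 0.46 at 6 h and -0.35 from 6 h to 24 h. The 4 over 60% had 0.01 and 0.23. What sharing this class did to the SREBF1 values was not tested. No member passed the threshold after it. The part of probe composition in the remaining spread was not tested.

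**Figure D3:**
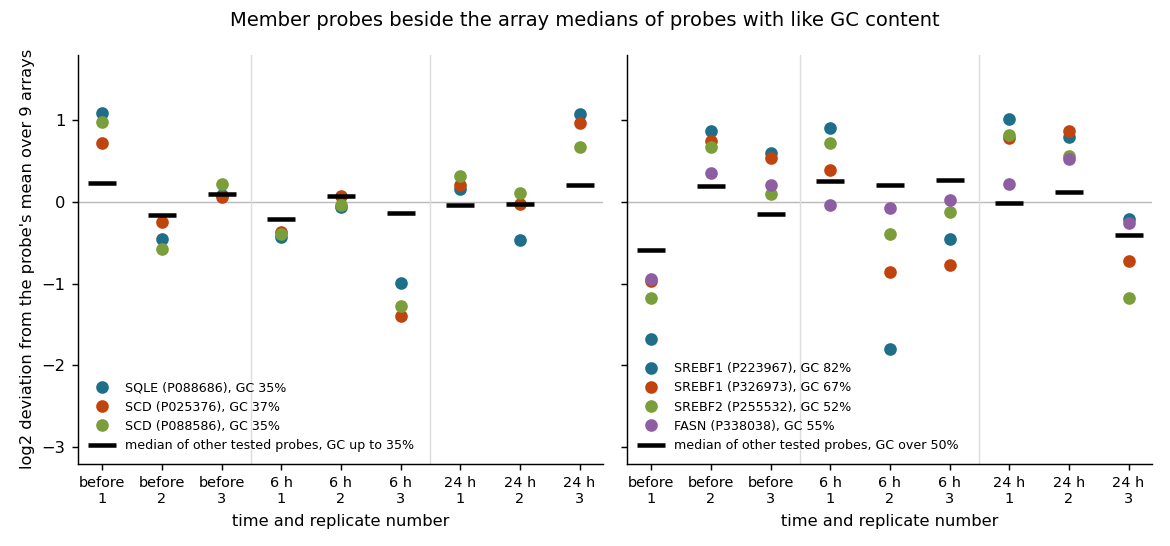
Coloured points are member probes as log2 deviations from their own mean over 9 arrays, in order of time and replicate; black dashes are array medians over 5376 other tested probes of at most 35% GC (left) and 352 over 50% (right). SQLE and SCD are high where the left dashes are high, on replicate 1 before feeding (0.23) and replicate 3 at 24 h (0.21), and lowest on replicate 3 at 6 h, where the dash is at -0.13.

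Among 1145 named genes, those with profiles most like the members over the 9 arrays were picked by Pearson r. For SQLE they were TLR1 (0.98), a receptor for bacterial lipopeptides, PSMA4 (0.94), a proteasome subunit, and CYP51A1 (0.94), the sterol demethylase that acts 2 enzymes after SQLE in the same pathway. For SCD P088586 they included CC2D1B (0.95) and APP (0.94). For SREBF2 they were F8 (0.97), DES (0.97) and MUC1 (0.96), and for SREBF1 P223967 they were TNFSF12 (0.94), GRK7 (0.93) and ROMO1 (0.88). For FASN P223177 they were AQP1 (0.91), the red cell water channel, EHMT2 (0.89) and PGLYRP2 (0.89). In the order named, the GC content of these probes was 40%, 35% and 45% for SQLE and 35% and 35% for SCD. It was 45%, 53.3% and 55% for SREBF2, 35%, 35% and 45% for SREBF1, and 35%, 45% and 40% for FASN. Those most like SREBF1 P223967 were thus far from its own 81.7%. The part of probe composition in these likenesses was not tested.

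The rest of the pathway was read from 8 lists of 126 genes, of which 66 had a named probe and 46 were tested, the members included. None of the 46 passed in any comparison; the smallest limma adjusted p was 0.0771 at 6 h, 0.293 at 24 h and 0.112 from 6 h to 24 h. At an unadjusted p under 0.05, 13 genes were higher and 1 lower at 6 h, where 14.7% and 10.9% of all probes were. At 24 h 2 were higher and 1 lower, where 5.32% and 8.56% were. From 6 h to 24 h 2 were higher and 8 lower, where 7.97% and 13.6% were. The genes higher at 6 h include ACACA, RXRA and LPIN2, and those higher at 24 h include ACACA. These were not well above background on every array before feeding and were tested only through 6 h and 24 h, where their means were higher. Their counts against before feeding are no independent support. The shares over all probes are repeated beside the counts per list below.

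For mevalonate and sterol synthesis 7 of 22 genes were tested, and 0 of 7 had an unadjusted p under 0.05 in any comparison. Of all probes 25.5% had one at 6 h, 13.9% at 24 h and 21.6% from 6 h to 24 h. Their median difference was -0.33 at 6 h, 0.11 at 24 h and -0.03 from 6 h to 24 h. MSMO1, a sterol methyl oxidase, had 0.92 ± 0.48 from 6 h to 24 h.

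Sterol sensing had 6 of 10 genes tested, with medians of -0.28, 0.16 and -0.06 in the same order. INSIG1, which holds the SREBF proteins back in the endoplasmic reticulum when sterols are high, had 0.77 ± 0.57 at 6 h. At an unadjusted p under 0.05 the list had 0 genes at 6 h, where 25.5% of all probes had such a p. At 24 h 1 was lower, where 8.56% of all probes were. From 6 h to 24 h there were 0, where 21.6% of all probes had such a p.

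Genes of cholesterol uptake and transport differed in direction. SCARB1, which takes up cholesterol from high-density lipoprotein, was 1.92 ± 0.44 higher at 6 h (limma adjusted p = 0.0771) and had -1.88 ± 0.44 from 6 h to 24 h. LRPAP1, a chaperone of the lipoprotein receptor family, had 1.27 ± 0.47 at 6 h. CD36, a fatty acid and lipoprotein receptor, had -1.20 ± 0.51 at 6 h and 1.46 ± 0.51 from 6 h to 24 h. In this list 6 of 16 genes were tested. At an unadjusted p under 0.05, 3 were higher and 1 lower at 6 h, where 14.7% and 10.9% of all probes were. At 24 h 1 was higher, where 5.32% of all were. From 6 h to 24 h 2 were higher and 1 lower, where 7.97% and 13.6% of all were.

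Cholesterol efflux and its LXR receptors had 4 of 14 genes tested, with medians of 0.72, 0.58 and -0.35. RXRA, the partner of the LXR receptors, had 1.91 ± 0.68 at 6 h, the 1 unadjusted p under 0.05, where 14.7% of all probes were higher. Its level on replicate 1 before feeding, -3.33, lay below the lowest level well above background on that array, -3.14. RXRA was thus tested only through 6 h and 24 h, where its mean was higher, so this p is no independent support for a difference. Leaving out 1 array gave 1.17 to 2.56 at 6 h, and other processing gave values down to 0.86. NR1H3, which encodes LXR alpha, had 0.46 ± 0.34 at 24 h. NR1H2, LXR beta, had -0.58 ± 0.36 from 6 h to 24 h, a sign that turned under other scalings.

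In fatty acid synthesis, with 7 of 16 genes tested and medians of 0.25, 0.16 and -0.09, PGD and ACACA had an unadjusted p under 0.05 at 6 h. Both were higher, where 14.7% of all probes were higher at such a p. PGD, which makes NADPH in the pentose phosphate pathway, had 1.72 ± 0.39 at 6 h (limma adjusted p = 0.0771) and -1.35 ± 0.39 from 6 h to 24 h. FABP3, a fatty acid carrier, had -0.64 ± 0.32 at 24 h. Of desaturation and elongation genes 4 of 19 were tested, with medians of 0.13, 0.21 and -0.14. ACSL4, which activates long polyunsaturated fatty acids, had 1.67 ± 0.38 at 6 h (limma adjusted p = 0.0771) and -1.34 ± 0.38 from 6 h to 24 h. FADS1, another desaturase, had -0.29 ± 0.27 at 24 h.

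Triglyceride and droplet genes had the largest medians of the 8 lists in size at 6 h and from 6 h to 24 h, with 8 of 17 tested. At 6 h 8 of 8 lay above 0, where 52.6% of all probes did, with a median of 1.07. Of them 5 had an unadjusted limma p under 0.05, where 14.7% of all probes were higher. LPIN2, 1 of these 5, was not well above background on every array before feeding. At 24 h the median was -0.05. From 6 h to 24 h it was -1.17 with 5 lower at an unadjusted limma p under 0.05, where 13.6% of all were. PLIN3, a coat protein of lipid droplets, had 2.12 ± 0.52 at 6 h (limma adjusted p = 0.0787) and -2.24 ± 0.52 from 6 h to 24 h. PNPLA2 and LIPE, the lipases that break stored triglyceride down, had 1.22 ± 0.33 and 0.91 ± 0.29 at 6 h and -1.23 ± 0.33 and -1.12 ± 0.29 from 6 h to 24 h. PLIN2, another droplet coat protein, had 0.30 ± 0.31 at 24 h.

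Regulators of lipid use had 4 of 12 genes tested, with medians of 0.32, 0.29 and -0.52. PPARD, a receptor for fatty acids, had 1.34 ± 0.44 at 6 h, the 1 unadjusted p under 0.05, where 14.7% of all probes were higher. PRKAG1, a subunit of the AMP-activated kinase, had -0.47 ± 0.26 at 24 h and -0.48 ± 0.26 from 6 h to 24 h. Without replicate 2 at 6 h, SCARB1, RXRA, PGD, ACSL4, PLIN3 and PNPLA2 had limma adjusted p-values between 0.0209 and 0.0416 at 6 h. SCARB1, PGD, ACSL4, PLIN3, PNPLA2 and LIPE then had limma adjusted p-values between 0.0270 and 0.0482 from 6 h to 24 h. Without that array, 2396 of all 19783 probes passed at 6 h and 1767 from 6 h to 24 h. On all 9 arrays none of these genes passed in the fit used here. RXRA was also not well above background on every array before feeding. With spike-in centring SCARB1, PGD, ACSL4, PLIN3 and PNPLA2 passed at 6 h (limma adjusted p between 0.0419 and 0.0497). There 615 of all 19783 probes passed.

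**Figure D4:**
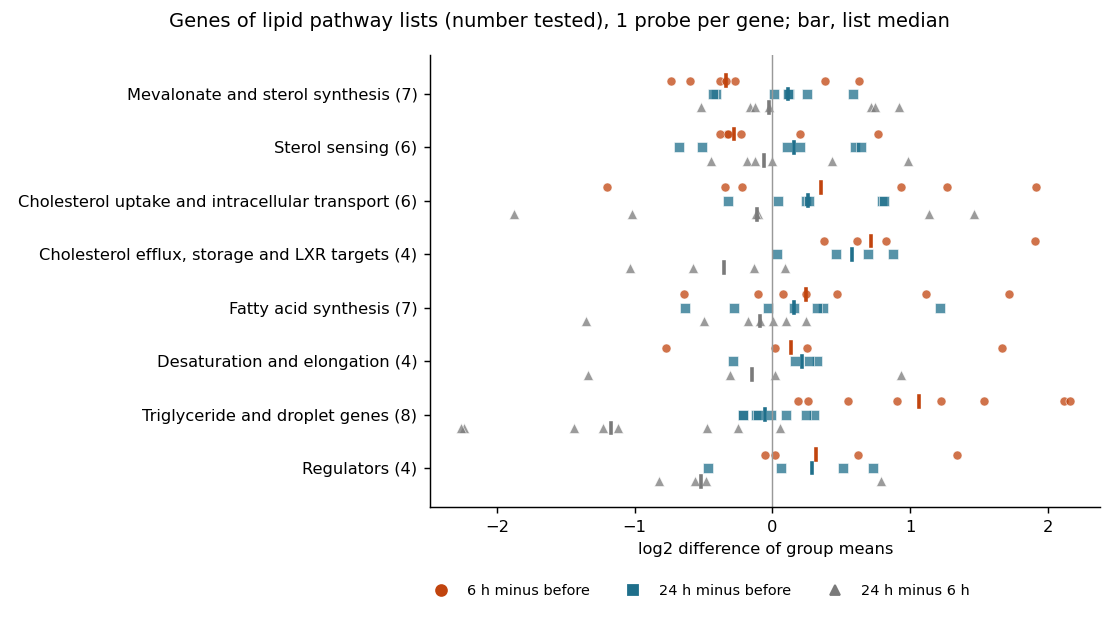
Each symbol is 1 tested gene of a lipid list (rows, with the number tested); the horizontal axis is the log2 difference of group means, circles for 6 h and squares for 24 h minus before feeding, triangles for 24 h minus 6 h, bars the list medians. Triglyceride and droplet genes lie to the right at 6 h (median 1.07) and to the left from 6 h to 24 h (median -1.17). Sterol synthesis genes lie on both sides of 0, with 5 of 7 below it at 6 h and 4 of 7 from 6 h to 24 h (medians -0.33 and -0.03).

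Blood cell markers moved over the same times. The mean level of 6 neutrophil genes per array lay between 4.71 and 5.20 before feeding. It lay between 6.03 and 7.72 at 6 h and between 5.20 and 5.42 at 24 h, and 6 of 6 had a higher mean at 6 h. That of 4 monocyte genes was 3.91 to 4.45, then 5.48 to 7.19, then 4.47 to 5.93, with 4 of 4 higher at 6 h. The 9 T cell genes had 2.28 to 2.68, then 1.02 to 2.13, then 2.24 to 2.32, with 8 of 9 lower at 6 h. Replicate 3 at 6 h, the array with the lowest SCD and SQLE and the highest SCARB1, PGD and PLIN3, had the highest neutrophil and monocyte levels and the lowest T cell level. The part of these cell markers in the lipid gene differences was not tested.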

How the data were processed

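Per the labels' protocols, RNA from preserved whole blood was labelled with Cy3 and hybridised to 1 array per sample of a porcine Agilent design. The deposited scanner files hold background-subtracted spot intensity, not normalized between arrays per the file headers, which name Feature Extraction 10.5.1.1; the submitters' processing notes name 9.5.3.1. The deposited series-wide table holds intensity; how it was made is not given in the sources, and it served as an alternative.

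Control and outlier spots were left out, spots of a probe averaged, and values taken as log2 intensity minus each array's 75th percentile. Of 43603 probes, 7 had no usable spot on some array. All 9 arrays entered 1 limma fit (3.58.1, R 4.3.3) with time as the only term, 6 residual degrees of freedom and 4.61 prior ones; the script was tested on simulated data. Probes were named from gene name and description for 3168 probes (7.27%); several symbols rest on sequence likeness recorded in the description, and matches under 5% were left out. Where a listed gene had more than 1 tested probe, the brightest on average stood for it. Positions in the genome were not analysed here. Members, lists and tests were chosen with earlier results of these data known. The values of a few list genes are left out. All tested members are named, with, per list and comparison, the gene of smallest p and up to 2 more per list with an unadjusted p under 0.05. Alternatives were quantile normalization, normexp (offset 50), spike-in centring, the deposited table, 2 filters, a replicate block, trended robust variance, each array left out and only the arrays compared, plus GC class centring. Python 3.11.15, pandas 2.3.3 and matplotlib 3.10.9 drew the plots.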

Additional observations from a re-analysis of the deposited data

How the results depend on the processing

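Over all tested probes, 5 passed at 6 h and 0 in the other comparisons. At 6 h the count was 8 with quantile normalization and with the deposited values, 615 with spike-in centring, and 0 with normexp, with no filter, with the filter to probes above background on all 9 arrays, with trended robust variance and with only the arrays compared. At 24 h it was 6 with quantile normalization and with the deposited values, and 5824 with spike-in centring, which moves the median of all probes by 0.23, 1.00 and 0.78 in the 3 comparisons. Leaving out 1 array gave 0 to 2396 probes at 6 h and 0 to 1767 from 6 h to 24 h; both upper values were without replicate 2 at 6 h, while at 6 h 25 passed without replicate 3 at 24 h, 6 without replicate 2 before feeding and 0 without any of the other arrays. Of the members 0 passed without any 1 array, with a lowest adjusted p of 0.0998. Arrays with the same number were not taken as pairs: the correlation of their deviations ran from -0.20 to 0.64, over 0.1 in 5 of 9 cases, though 7 of 9 arrays were closest to one of their own number. With the replicate number as a block 620 probes passed at 6 h and 0 in the other comparisons; 0 members passed, and of the named list genes SCARB1, PGD and PLIN3 did at 6 h (adjusted p = 0.0441, 0.0416 and 0.0469).

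Member directions turned as follows. SREBF2 at 6 h was -0.025 with quantile normalization and with the deposited values, and -0.20 with GC centring; from 6 h to 24 h it was 0.40, 0.41 and 0.33, with 0.31 under normexp and 0.78 under spike-in centring. ACACA with normexp was -0.16 at 24 h and -0.20 from 6 h to 24 h. FASN P223177 with spike-in centring was 0.12, 0.73 and 0.60 in the 3 comparisons, and from 6 h to 24 h 0.068 with normexp and 0.093 with GC centring. FASN P338038 with normexp was -0.071, -0.14 and -0.068, and -0.30 at 6 h with GC centring. SCD P025376 at 24 h was -0.068 with normexp. The normexp offset narrows differences between faint spots, so its values for ACACA, FASN P338038 and SCD P025376 cannot tell whether these changed. With spike-in centring 2 members passed at 24 h, ACACA (limma adjusted p = 0.0217) and FASN P338038 (0.0265). In that comparison 5824 of all 19783 probes passed, 5821 of them higher. The test over all times was passed by 2 members, and no count over all probes is given for it. Of the named list genes spike-in centring took 7 past the threshold. At 6 h, where 615 of 19783 probes passed, these were SCARB1, PGD, ACSL4, PLIN3 and PNPLA2. At 24 h they were NR1H3 (1.47, limma adjusted p = 0.0291) and PLIN2 (1.30, limma adjusted p = 0.0332).

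Without 1 array, ACACA ran from 0.68 to 1.44 at 6 h, 0.78 to 1.62 at 24 h and -0.14 to 0.51 from 6 h to 24 h. FASN P223177 ran from -0.37 to 0.17 at 6 h, -0.55 to 0.0088 at 24 h and -0.45 to 0.11 from 6 h to 24 h, and P338038 from -0.30 to 0.34 at 6 h and -0.12 to 0.52 at 24 h. At 6 h SCD P025376 ran from -1.06 to -0.33, SCD P088586 from -1.16 to -0.39 and SQLE from -1.08 to -0.31. From 6 h to 24 h they ran from 0.53 to 1.27, 0.58 to 1.20 and 0.34 to 1.11. At 24 h SCD P025376 ran from -0.090 to 0.47, SCD P088586 from -0.23 to 0.55 and SQLE from -0.40 to 0.44. SREBF1 P223967 ran from -1.18 to 0.30 at 6 h and -0.20 to 1.07 at 24 h, and P326973 from -0.33 to 0.72 at 24 h. SREBF2 ran from -0.32 to 0.61, -0.32 to 0.82 and -0.38 to 0.62 in the 3 comparisons.

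Of the list genes, spike-in centring turned 24 h values of FABP3 to 0.37, FADS1 to 0.71 and PRKAG1 to 0.54, and values from 6 h to 24 h of NR1H2 to 0.20 and PRKAG1 to 0.30. Quantile normalization and the deposited values gave NR1H2 0.0069 and 0.025 and PRKAG1 0.0089 and 0.0021 from 6 h to 24 h, and normexp gave FADS1 0.025 at 24 h. Each cause was not tested. A slide block could not be fitted, since each time lies on its own slide. Faint signal limits ACACA most: 3 of its 4 probes gave no signal well above background on 9 of 9 arrays.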
